A study of Sorghum bicolor with 16 samples.

Results

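The salt response of Roma, a sweet sorghum (Sorghum bicolor) strain labelled salt-sensitive, was described from root RNA of plants at the three-leaf phase. The comparison rests on 4 of the 8 expression columns of the study, 2 for untreated (control) and 2 for salt-stressed Roma roots, and on 2 of its 4 lists of N6-methyladenosine (m6A) peaks, 1 for each treatment. Roma gave 8 of the 16 samples: for each treatment 2 libraries of RNA fragments enriched with an m6A antibody (IP) and 2 of unenriched fragments (input). The other samples are roots of M-81E, labelled salt-tolerant, with the same treatments, and they enter only where a difference between the strains is named. All libraries were made from poly(A) RNA cut into short fragments, and the 2 samples of each group are described as biological replicates. The sources used here give no salt dose, length of treatment or number of plants per sample. Expression is in FPKM, fragments scaled to transcript length and library size. The labels tie the columns to the IP samples and do not say whether IP or input fragments were counted, so a change in expression and a change in enrichment cannot be told apart. Of 29033 genes in the table, 16280 had a mean of at least 1 FPKM over the 8 columns and were tested.

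m6A is a methyl group on adenosine in messenger RNA. In plants a nuclear methyltransferase complex writes it, demethylases can remove it and proteins with a YTH domain read it, and most sites lie near the 3′ end of the transcript. Roots meet salt first: sodium enters through channels and transporters, water uptake drops, and cells respond through abscisic acid, calcium signals, proton pumps that drive ion exchange, protective proteins and sugars, and enzymes that remove reactive oxygen. m6A-seq maps the mark as peaks, regions where IP fragments outnumber input fragments.

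The 4 Roma libraries were alike in scale, with 372362 to 377097 summed FPKM and 15859 to 16006 genes at 1 FPKM or more. Replicates ranked the tested genes alike, the Spearman correlation across genes being 0.912 between the controls and 0.904 between the salt libraries, and differed with an SD of 0.526 and 0.551 on the log2(FPKM + 1) scale. On the first principal component, which held 46.0% of the variance of the 4 libraries, the control libraries lay at -41.4 and -47.7 and the salt libraries at 39.0 and 50.0. By annotated functions, 274 genes of root development summed to 5980 to 6299 FPKM in the 4 libraries, and 386 genes of photosynthesis to 2396 to 2587 FPKM. The lists differ in length and no other tissue was at hand, so these sums do not test the labelled tissue. Read totals are not given with the FPKM values, so depth is unknown. These are whole roots, in which fewer cells of a type and less RNA per cell cannot be told apart.

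A value of exactly 0 in the table cannot be taken as the absence of a transcript. Of the 201 tested genes listed at 0 in both Roma salt libraries, 70 carried an m6A peak in the Roma salt list. Of the 234 listed at 0 in both control libraries, 23 carried a peak in the control list. Genes with such values are given below as listed at 0, with no fold, and were kept out of the largest changes described first.

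Few genes passed the threshold with salt, and their changes were large. With limma on log2(FPKM + 1) in a fit of all 8 expression libraries, 77 of the 16280 tested genes (0.473%) passed a Benjamini-Hochberg adjusted p of 0.05. Of these, 54 (0.332%) were higher and 23 (0.141%) lower in salt. Their median log2 changes were 2.83 and -2.53. In a fit of the 4 Roma libraries alone (the Roma-only fit), 217 genes passed (1.33%), 137 higher (0.842%) and 80 lower (0.491%), at medians of 2.05 and -2.00. Both fits called 58 genes in the same direction. At an unadjusted p under 0.05 (limma) there were 1924 genes in the fit of 8 libraries and 4418 in the Roma-only fit. The calls are therefore no count of all genes that changed. A further measure needs no model: both salt libraries lay above both control libraries, or below both, for 59.4% of tested genes, 27.2% above and 32.3% below. Such separation of libraries is therefore common, and a share near these values says nothing particular about a group of genes. The median log2 change of all tested genes was -0.03.

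The number of calls moved with single libraries. Without Roma control replicate 1 or 2 the fit of all libraries called 46 or 44 genes, and without Roma salt replicate 2 it called 33. Without replicate 1 or 2 of the M-81E controls, which carry no Roma RNA but set the pooled spread, it called 309 or 311. The fit of the Roma libraries alone called 0 genes at the adjusted threshold in limma when any 1 Roma library was left out, with 2901 to 3826 genes at an unadjusted p under 0.05. An exact permutation of 2 against 2 libraries cannot give a two-sided p below 0.333, so single genes were tested only with the spread that limma moderates over all genes. The genes named from either fit were chosen in part because their Roma groups did not overlap, and all 77 and all 217 calls had this property, so it lends no support to any of them. Of the 77 calls, 25 had a Roma library at 0. The M-81E controls, which enter the spread of the fit of all libraries, agreed least of all groups. Their Spearman correlation across genes was 0.807 and their SD 0.772 on the log2(FPKM + 1) scale.

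Among the 15 largest rises were a desiccation protein and enzymes of central carbon metabolism. SORBI_3009G215700, annotated as late embryogenesis abundant protein 3, one of a family that protects cell structures during water loss, stood at 0.982 and 2.23 FPKM in the control libraries and 91.0 and 69.4 FPKM in the salt libraries. Its mean level was 50.0 times that of the control, a log2 change of 4.99 ± 0.54 (SE; limma, adjusted p 0.026 in the fit of 8 libraries). It kept its call in 2 of 8 fits that left out 1 library each. SORBI_3003G292400, annotated as a malic enzyme, which splits malate to pyruvate and carbon dioxide, stood at 1.72 and 0.850 FPKM in the control libraries and 48.6 and 62.9 FPKM in the salt libraries. Its log2 change was 4.65 ± 0.27 (limma, adjusted p 0.0035), and it was called in all 8 leave-out fits. SORBI_3002G316900, annotated as aconitase, which turns citrate to isocitrate, was at 0.781 and 1.00 FPKM with control and 18.7 and 24.5 FPKM with salt. SORBI_3001G384100, a phosphoglycerate mutase of glycolysis by annotation, was at 1.95 and 2.31 FPKM with control and 31.8 and 39.2 FPKM with salt. Both enzymes rose, to 24.2 and 16.7 times the control mean (limma, adjusted p 0.004 and 0.0045), and both were called in all 8 leave-out fits.

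A pyruvate dehydrogenase subunit by annotation, SORBI_3010G101300, which links glycolysis to the citric acid cycle, also rose, from 0.884 and 0.643 FPKM in the control libraries to 5.12 and 7.45 FPKM in the salt libraries (limma, adjusted p 0.043). Over all 210 tested genes of glycolysis and the citric acid cycle, 4 were called higher and 1 lower in the fit of 8 libraries, against 0.332% and 0.141% of all tested genes. The 4 higher calls include SORBI_3008G096200, a protein kinase by annotation. The median log2 change of the whole list was -0.11, below the -0.03 of all tested genes. Both salt libraries lay above both control libraries for 56 members (26.7%) and below for 93 (44.3%), against 27.2% and 32.3% of all tested genes. Summed over all 298 members, the list held 18313 and 18504 FPKM in the control libraries and 14301 and 15015 FPKM in the salt libraries. Pyruvate decarboxylase, the entry to alcoholic fermentation, was represented by SORBI_3003G061300, with 5.54 and 5.67 FPKM in the control libraries and 17.4 and 19.5 FPKM in the salt libraries. It was called in the Roma-only fit (limma, adjusted p 0.043) and not in the fit of 8 libraries (adjusted p 0.065).

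Genes annotated with oxalate decarboxylase activity, which breaks oxalate down to formate and carbon dioxide, were among the strongest risers. SORBI_3004G148100 stood at 1.12 and 0.929 FPKM in the control libraries and 40.1 and 58.1 FPKM in the salt libraries. SORBI_3007G067608 stood at 0.592 and 0.243 FPKM in the control libraries and 27.9 and 33.0 FPKM in the salt libraries. Their log2 changes were 4.61 ± 0.34 and 4.48 ± 0.41 (limma, adjusted p 0.0059 and 0.014). SORBI_3003G136200, which carries the same annotated activity and is also listed with transport through plasmodesmata, was at 28.1 and 21.8 FPKM in the control libraries and 133 and 142 FPKM in the salt libraries and was called in the Roma-only fit alone (limma, adjusted p 0.036, against 0.62 in the fit of 8 libraries). The sources used here do not give how fragments shared by similar genes were assigned.

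Transporters of several kinds rose. The plasma membrane proton pump SORBI_3001G132400, annotated as a hydrogen-exporting ATPase, which sets up the proton gradient that ion and nutrient carriers use, stood at 7.95 and 8.42 FPKM in the control libraries and 94.9 and 101 FPKM in the salt libraries. That is about 12 times the control mean (log2 change 3.43 ± 0.23, limma, adjusted p 0.005; called in 7 of 8 leave-out fits). It was the only one of 35 tested proton pump genes to be called, and of the list 20 members (57.1%) had both salt libraries below both control libraries and 5 (14.3%) above, against 32.3% and 27.2% of all tested genes, with a median log2 change of -0.15. SORBI_3003G300600, which by its annotation forms a voltage-gated potassium channel, was at 2.23 and 1.08 FPKM with control and 15.3 and 15.9 FPKM with salt (limma, adjusted p 0.017). SORBI_3004G260500, a nitrate transporter by annotation, was at 1.42 and 1.06 FPKM with control and 15.5 and 14.2 FPKM with salt (limma, adjusted p 0.0094). The sugar transporter SORBI_3001G373600 was at 7.27 and 6.76 FPKM with control and 34.4 and 39.8 FPKM with salt and was called in both fits (limma, adjusted p 0.018 and 0.029). Another nitrate transporter gene, SORBI_3004G009200, was listed at 0 in both control libraries and at 10.7 and 9.62 FPKM in the salt libraries. It was called in the Roma-only fit (limma, adjusted p 0.02) and not in the fit of 8 libraries (adjusted p 0.29). In M-81E its replicates were listed at 3.63 and 0 FPKM with control and 7.39 and 0 FPKM with salt. Of 51 tested nitrate genes 17 (33.3%) lay above and 16 (31.4%) below, against 27.2% and 32.3% of all tested genes. Among all 58 tested genes of sodium and potassium transport 65.5% had a positive change, against 47.4% of all tested genes, and the potassium channel was the only member called in the fit of 8 libraries. In the Roma-only fit it did not pass (limma, adjusted p 0.056), and 0 members were called in limma.

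Enzymes that handle reactive oxygen and foreign compounds moved in both directions. A catalase, SORBI_3004G011566, which splits hydrogen peroxide, rose from 11.4 and 9.98 FPKM in the control libraries to 48.1 and 44.4 FPKM in the salt libraries (limma, adjusted p 0.027 in the fit of 8 libraries and 0.029 in the Roma-only fit). Of the 25 tested genes of catalase, superoxide dismutase and the ascorbate cycle, 10 had both salt libraries above both control libraries (40%, against 27.2% of all tested genes) and 2 below (8%, against 32.3%), and the median log2 change was 0.13. The glutathione transferase SORBI_3001G280800 fell from 34.1 and 35.7 FPKM in the control libraries to 10.6 and 11.2 FPKM in the salt libraries (limma, adjusted p 0.027). A second one, SORBI_3009G017800, was at 14.3 and 13.0 FPKM with control and 39.9 and 39.1 FPKM with salt and was called in the Roma-only fit (limma, adjusted p 0.031). A protein-disulfide reductase of redox balance, SORBI_3003G323500, rose from 1.23 and 1.35 FPKM in the control libraries to 12.8 and 21.8 FPKM in the salt libraries (limma, adjusted p 0.026).

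Peroxidases, many of them secreted enzymes that consume hydrogen peroxide and cross-link the cell wall, had 0 calls in the fit of 8 libraries in limma, and 1 called higher and 3 lower of 131 tested in the Roma-only fit, against 0.842% and 0.491% of all tested genes. SORBI_3003G140700 stood at 212 and 214 FPKM in the control libraries and 64.6 and 54.3 FPKM in the salt libraries, and SORBI_3002G416700 at 22.1 and 21.6 FPKM in the control libraries and 6.0 and 5.01 FPKM in the salt libraries. SORBI_3010G162000 was at 33.7 and 36.2 FPKM with control and 10.7 and 10.3 FPKM with salt. All 3 were called lower in the Roma-only fit (limma, adjusted p 0.034, 0.039 and 0.029) and none in the fit of 8 libraries (adjusted p 0.18, 0.13 and 0.63). In the M-81E controls, which enter the spread of the latter fit, SORBI_3010G162000 was at 156 and 11.2 FPKM. SORBI_3007G192300, also annotated with a response to salt stress, was called higher in the Roma-only fit, at 9.93 and 11.0 FPKM in the control libraries and 32.8 and 28.7 FPKM in the salt libraries (limma, adjusted p 0.047). Of all tested peroxidases, 51 had both salt libraries below both control libraries and 27 above, against 32.3% and 27.2% of all tested genes.

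Other called rises fell in several classes. A neighbouring pair of monooxygenase genes by their identifiers, SORBI_3003G228400 and SORBI_3003G228300, rose 25.1 and 8.49 times over the control mean. The first stood at 0.529 and 0.398 FPKM in the control libraries and 12.3 and 10.9 FPKM in the salt libraries, and the second at 4.97 and 4.20 FPKM in the control libraries and 34.0 and 43.8 FPKM in the salt libraries (limma, adjusted p 0.005 and 0.027). An oxidoreductase of unnamed substrate, SORBI_3009G171400, rose from 0.429 and 0.689 FPKM in the control libraries to 17.4 and 19.8 FPKM in the salt libraries (limma, adjusted p 0.0033). The inorganic pyrophosphatase SORBI_3003G367650 stood at 1.67 and 1.59 FPKM in the control libraries and 10.4 and 10.2 FPKM in the salt libraries and was called in both fits (limma, adjusted p 0.014 and 0.029). A mitochondrial import channel subunit, SORBI_3001G396900, was at 0.20 and 0.654 FPKM with control and 11.2 and 8.08 FPKM with salt, and a large ribosomal subunit gene, SORBI_3001G383000, at 2.26 and 3.64 FPKM with control and 37.1 and 31.6 FPKM with salt (limma, adjusted p 0.042 and 0.045).

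**Figure D1:**
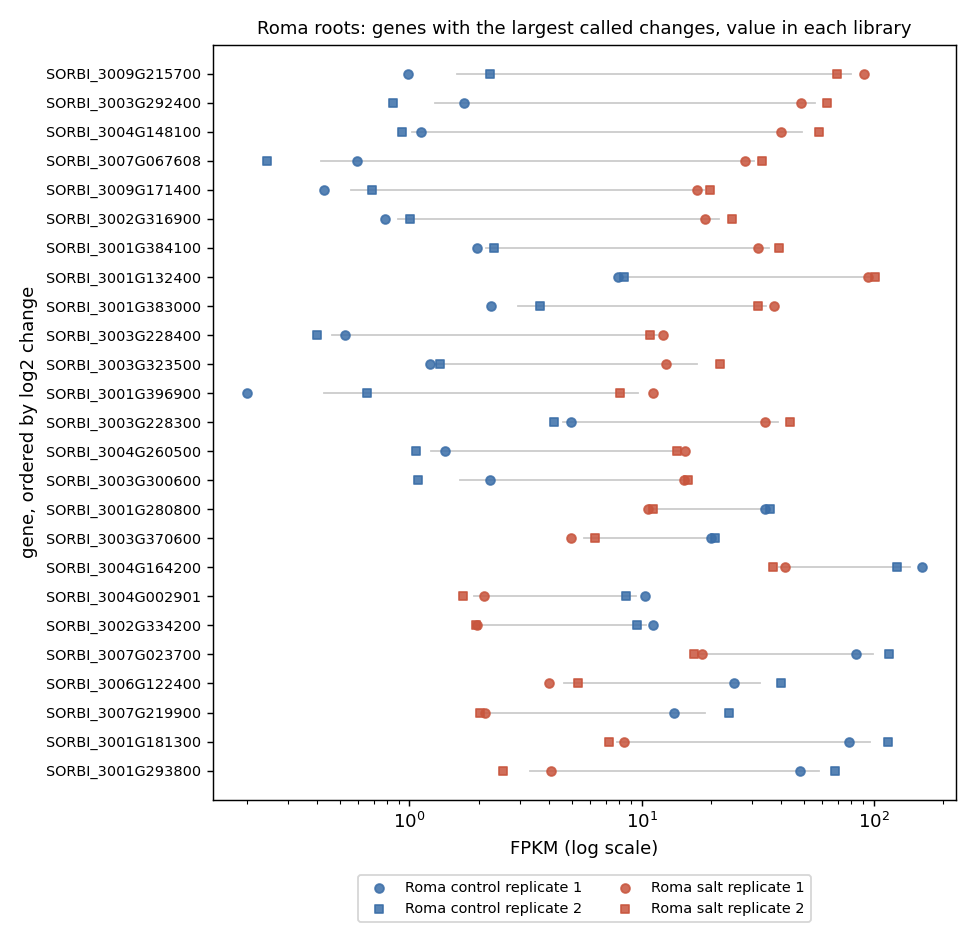
FPKM on a log scale in each of the 4 Roma libraries for the 15 largest rises and the 10 falls that the naming rule took from the fit of 8 libraries, ordered by log2 change; blue marks are control, red marks salt, circles and squares replicates 1 and 2, and grey lines join the group means. The genes were chosen with groups that do not overlap, and the proton pump gene SORBI_3001G132400 goes from 7.95 and 8.42 to 94.9 and 101 FPKM.

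Of the falls named from the fit of 8 libraries, the largest was in a starch gene. SORBI_3001G293800, annotated as beta-amylase, which releases maltose from starch, stood at 48.2 and 68.4 FPKM in the control libraries and 4.08 and 2.52 FPKM in the salt libraries. Its control mean was 17.7 times its salt mean, a log2 change of -3.79 ± 0.38 (limma, adjusted p 0.02). Raffinose-type sugars are built by galactinol-sucrose galactosyltransferases, and genes with that annotation fell: SORBI_3007G219900 was at 13.8 and 23.7 FPKM with control and 2.11 and 2.01 FPKM with salt. SORBI_3006G122400 was at 24.9 and 39.8 FPKM with control and 4.00 and 5.30 FPKM with salt (limma, adjusted p 0.031 and 0.026). Neither gene passed in the Roma-only fit (limma, adjusted p 0.061 and 0.062). The first is also annotated as a hydrolase and the second with raffinose breakdown, so the annotation does not settle whether they build or break down such sugars. A gene with the galactosyltransferase annotation, SORBI_3003G052300, went the other way, at 0.592 and 0.710 FPKM with control and 4.85 and 5.41 FPKM with salt. It was called higher in the Roma-only fit (limma, adjusted p 0.038, against 0.24 in the fit of 8 libraries). Sucrose synthase SORBI_3001G378300, also annotated with the response to water deprivation, was at 17.8 and 16.1 FPKM with control and 46.4 and 48.1 FPKM with salt and was called higher in the Roma-only fit (limma, adjusted p 0.033, against 0.054 in the fit of 8 libraries). Of all 453 tested starch and sucrose genes, 2 were called higher and 5 lower in the fit of 8 libraries, against 0.332% and 0.141% of all tested genes. In the Roma-only fit 8 were called higher and 5 lower, against 0.842% and 0.491%. The calls of both fits include a protein kinase, SORBI_3008G013800, and an enzyme inhibitor by annotation, SORBI_3010G261100. The kinase was listed at 0 in both control libraries and the inhibitor at 0 in both salt libraries. The median log2 change of the list was 0.02, against -0.03 for all tested genes.

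Falls outside sugar metabolism were in genes of transport, cell wall synthesis and others of broad annotation. A folate-binding transferase by annotation, SORBI_3001G181300, fell from 78.7 and 115 FPKM in the control libraries to 8.38 and 7.23 FPKM in the salt libraries (limma, adjusted p 0.0059; called in 7 of 8 leave-out fits). A gene of transition metal transport, SORBI_3004G164200, fell from 161 and 126 FPKM in the control libraries to 41.3 and 36.9 FPKM in the salt libraries (limma, adjusted p 0.027). SORBI_3002G334200, annotated with cellulose synthesis and root hair growth, fell from 11.2 and 9.60 FPKM in the control libraries to 1.95 and 1.94 FPKM in the salt libraries (limma, adjusted p 0.026). A nodulin-like membrane transporter, SORBI_3004G002901, a hydrolase, SORBI_3003G370600, and an isomerase, SORBI_3007G023700, also fell, by 4.97, 3.60 and 5.71 times (limma, adjusted p 0.026, 0.038 and 0.014). Of the 25 genes in these largest changes, 8 did not pass in the Roma-only fit (limma, adjusted p 0.052 to 0.062). In the fit of all groups 5 were called in all 8 leave-out fits, and 13 lost their call whenever any 1 of the 4 Roma libraries was left out.

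The Roma-only fit added abundant genes on the lower side. SORBI_3008G136000, a chaperone-type ATP-binding gene annotated with protein folding and heat response, stood at 508 and 462 FPKM in the control libraries and 38.6 and 40.8 FPKM in the salt libraries, 12.2 times lower with salt (limma, adjusted p 0.02, against 0.075 in the fit of 8 libraries). A tubulin gene, SORBI_3001G107100, which builds microtubules, was at 441 and 398 FPKM with control and 122 and 128 FPKM with salt (limma, adjusted p 0.029 and 0.18 in the same order). An acyltransferase, SORBI_3003G037800, was at 184 and 211 FPKM with control and 21.7 and 19.0 FPKM with salt, and a ubiquitin transferase, SORBI_3006G009000, at 153 and 154 FPKM with control and 2.86 and 6.61 FPKM with salt (limma, adjusted p 0.02 and 0.048 in the Roma-only fit). A vesicle traffic gene of the ARF exchange factor class, SORBI_3001G301200, was at 28.4 and 28.8 FPKM with control and 1.51 and 1.21 FPKM with salt. A cyclin, SORBI_3001G169800, which drives the cell cycle, was at 20.7 and 19.5 FPKM with control and 5.22 and 5.21 FPKM with salt (limma, adjusted p 0.02 and 0.029). None of these 6 genes was called in the fit of 8 libraries.

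On the higher side the Roma-only fit called a chitinase, SORBI_3006G132400, at 5.48 and 4.62 FPKM in the control libraries and 51.3 and 39.5 FPKM in the salt libraries (limma, adjusted p 0.033), and an F-box-type subunit of a ubiquitin ligase complex, SORBI_3003G285300, at 1.23 and 1.02 FPKM in the control libraries and 13.5 and 11.8 FPKM in the salt libraries (limma, adjusted p 0.029). A gene of tRNA proofreading, SORBI_3003G094200, went from 32.2 and 33.6 FPKM in the control libraries to 142 and 139.6 FPKM in the salt libraries (limma, adjusted p 0.02). Among transcription factors, SORBI_3006G204300 was at 4.17 and 3.89 FPKM with control and 19.6 and 20.2 FPKM with salt and was called in both fits (limma, adjusted p 0.048 and 0.028). SORBI_3010G045700, annotated with the responses to salicylic acid and bacteria, was at 8.81 and 9.40 FPKM with control and 39.9 and 32.6 FPKM with salt. SORBI_3004G283300, a factor of the ethylene pathway by annotation, was at 49.1 and 47.6 FPKM with control and 108 and 97.4 FPKM with salt. Both were called higher in the Roma-only fit (limma, adjusted p 0.044 and 0.047). Of 688 tested transcription factors, 59.6% had a positive change, against 47.4% of all tested genes. Both salt libraries lay above both control libraries for 248 (36.0%, against 27.2%) and below for 157 (22.8%, against 32.3%), with a median log2 change of 0.09. The calls themselves were few: 2 higher in the fit of 8 libraries, and 3 higher and 1 lower in the Roma-only fit. They were 0.291% and 0.581% of the list, against 0.473% and 1.33% of all tested genes.

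Of the 77 calls in the fit of 8 libraries, 21 had both libraries of 1 Roma group at 0. SORBI_3004G305600, annotated with splicing and with the responses to salt and abscisic acid, was listed at 39.7 and 45.0 FPKM in the control and at 0 in both salt libraries, yet carried 2 peaks in the salt list as in the control list. In M-81E it was listed at 0 in all 4 libraries, yet carried 1 peak in each list. SORBI_3005G109000, a monooxygenase of the heme type, was listed at 0 in both control libraries and at 62.6 and 48.8 FPKM in the salt libraries. SORBI_3006G233300, an RNA-binding gene annotated with ethylene synthesis, was listed at 0 in both control libraries and at 6.44 and 8.37 FPKM with salt. SORBI_3009G232700, annotated to the U2AF splicing factor, was at 3e-06 and 0 FPKM in control and 9.89 and 10.4 FPKM with salt, yet carried 1 peak in each Roma list. SORBI_3004G231200, a DNA-binding gene annotated with root development, and SORBI_3002G113500, of calcium signalling, were listed at 0 in both salt libraries, after 10.8 and 12.2 FPKM and 6.05 and 8.27 FPKM in control. All the same, SORBI_3002G113500 carried 2 peaks in the salt list. Each of these 6 genes was called in both fits. Calls of this kind rest on where the table lists a 0, and whether a transcript was absent was not tested.

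Gene groups are described by all their tested members, while the single genes were chosen for large changes, so the sizes of the 2 are not compared. Ribosome constituents, which build the protein synthesis machinery, were more often lower than higher: of 309 tested genes 162 (52.4%) had both salt libraries below both control libraries and 39 (12.6%) above, against 32.3% below and 27.2% above of all tested genes, and the median log2 change was -0.26. Only 1 of them was called in either fit, the riser named above. Of 24 tested water channels, which carry water across membranes, 13 were below (54.2%) and 7 above (29.2%), with a median of -0.54 and 0 calls in either limma fit. Cell wall loosening genes, such as expansins, had 57 of 125 members below (45.6%) and 25 above (20%), with a median of -0.21. Their summed FPKM went the other way, from 2432 and 2661 in the control libraries to 3238 and 2781 in the salt libraries. SORBI_3009G173700, annotated with this function, was called higher in the Roma-only fit at 0.298 and 0.365 FPKM in the control libraries and 4.83 and 5.33 FPKM in the salt libraries. Of 296 lignin and phenylpropanoid genes, 123 (41.6%) were below and 67 (22.6%) above, with 0 calls in the limma fit of 8 libraries. The Roma-only fit called 2 higher and 7 lower, against 0.842% and 0.491% of all tested genes. Some of these calls rest on a listed 0. SORBI_3005G101800 and SORBI_3010G001300 were listed at 0 in both salt libraries, and SORBI_3002G005300 at 0 in both control libraries. Of 70 tested translation initiation genes 32 were below and 18 above, with 0 calls in either limma fit.

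The lists that name the stress itself had few calls. Of 340 tested abscisic acid genes 102 (30.0%) were above and 106 (31.2%) below, against 27.2% and 32.3% of all tested genes, with 1 call in each direction in the fit of 8 libraries and a median log2 change of 0.01. These calls were 0.588% of the list, against 0.473% of all tested genes. Of 329 genes annotated with salt or osmotic stress 100 (30.4%) were above and 120 (36.5%) below, with 2 calls higher and 1 lower in the fit of 8 libraries (0.912% of the list). The Roma-only fit called 5 higher and 5 lower, 3.04% of the list against 1.33% of all tested genes. Their median was -0.02, and its sign turned to 0.01 after median centring of the libraries. Of 180 genes of water deprivation 67 (37.2%) were above and 53 (29.4%) below, against 27.2% and 32.3% of all tested genes. The late embryogenesis abundant gene was the single call among them in the fit of 8 libraries (0.556%), and the Roma-only fit called 2 higher and 1 lower (1.67%). Genes of ethylene had 60 of 187 members above and 40 below, and those of auxin 90 of 248 above and 73 below. Of 252 calcium signalling genes 86 were above and 77 below. Among them SORBI_3001G435800, a calcium-binding gene, was at 65.5 and 68.7 FPKM with control and 129.6 and 141 FPKM with salt, and SORBI_3008G123100, a calmodulin-binding one, at 68.3 and 64.4 FPKM with control and 128 and 133 FPKM with salt. Both were called higher in the Roma-only fit (limma, adjusted p 0.049 and 0.044). The lists are annotation phrases, and a gene can be in several.

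**Figure D2:**
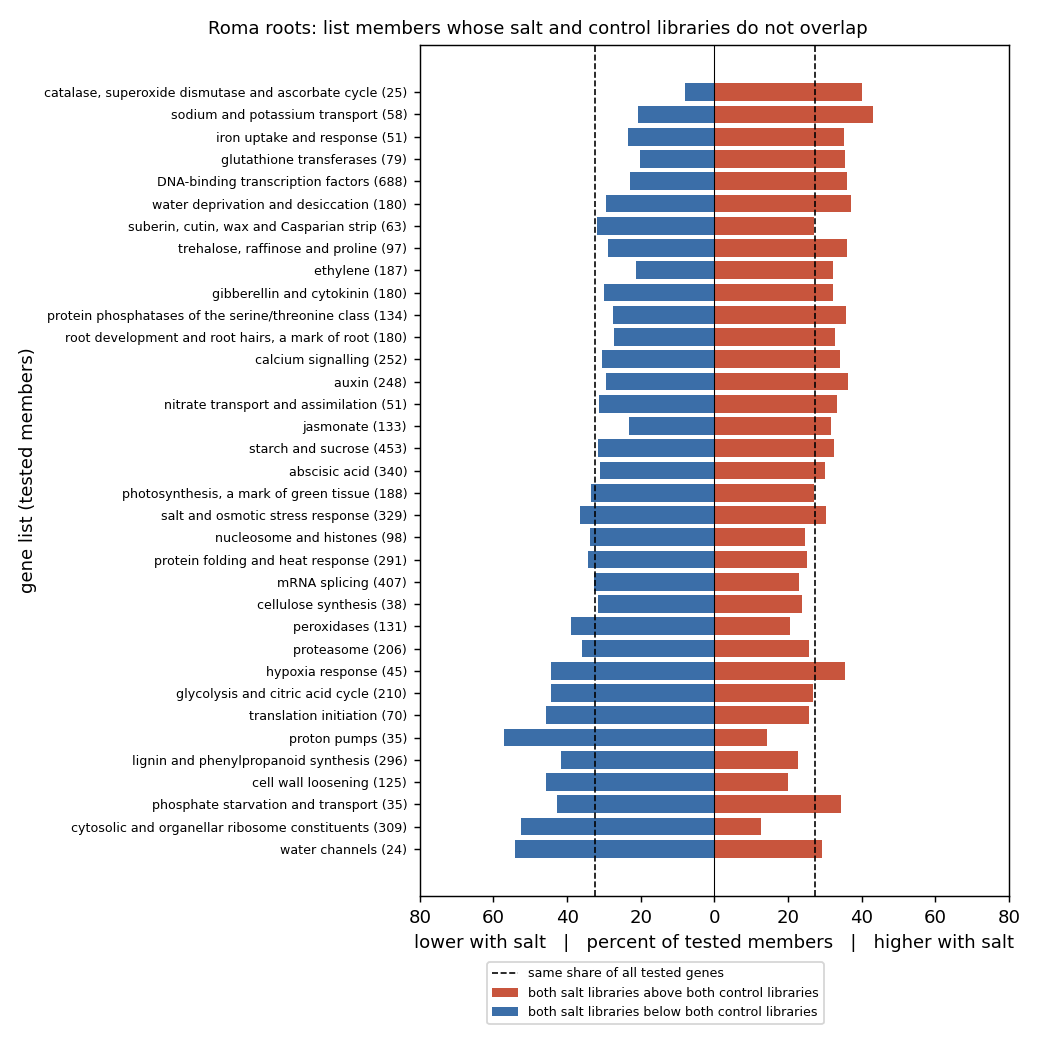
Share of the tested members of each gene list (number in brackets) with both Roma salt libraries above both control libraries (red, to the right) or below both (blue, to the left), ordered by the median log2 change; dashed lines mark the same shares of all tested genes, 27.2% and 32.3%. Ribosome constituents reach 52.4% on the lower side and 12.6% on the higher side, and proton pumps 57.1% and 14.3%.

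The difference between the salt responses of Roma and M-81E was tested gene by gene. It passed the threshold for 29 genes (0.178%; limma, adjusted p under 0.05), with Roma minus M-81E positive for 21 and negative for 8. At an unadjusted p under 0.05 there were 1421. Of the 29, 8 were listed at 0 in all 4 M-81E libraries. For these 8 no M-81E response was measured, and the difference equals the Roma change. The count fell to 16 without Roma control replicate 1 and to 18 without Roma salt replicate 2, and rose to 1089 without M-81E control replicate 1, to 101 without its replicate 2, and to 94 without M-81E salt replicate 2. In M-81E 80 genes (0.491%) were called in the same fit. Of the 77 genes called in Roma, 12 were also called in the same direction in M-81E, 4 in the opposite direction, and for 17 the difference itself was called.

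Of the 3 oxalate decarboxylase genes named above, 2 were called in opposite directions in the strains. SORBI_3004G148100, which rose in Roma, was at 167 and 90.6 FPKM with control and 5.81 and 5.41 FPKM with salt in M-81E, a log2 change of -4.23 there, and the difference of the changes was 8.84 ± 0.48 (SE; limma, adjusted p 0.0036). SORBI_3007G067608 was at 22.3 and 9.07 FPKM with control and 0.275 and 0.166 FPKM with salt in M-81E, with a difference of 8.13 ± 0.57 (limma, adjusted p 0.011). The other, SORBI_3003G136200, was at 352 and 7.80 FPKM with control and 517 and 386 FPKM with salt in M-81E, where the control replicates lay far apart, and the difference of its changes was -0.58 ± 2.18 (limma, adjusted p 0.96). The malic enzyme gene SORBI_3003G292400 was at 0.130 and 0.136 FPKM with control and 0.797 and 1.16 FPKM with salt in M-81E, a difference of 3.85 ± 0.38 (limma, adjusted p 0.03). The proton pump SORBI_3001G132400 was at 5.30 and 7.29 FPKM with control and 17.2 and 22.3 FPKM with salt in M-81E, and here the difference, 1.92 ± 0.32, did not pass (limma, adjusted p 0.15). The potassium channel SORBI_3003G300600 was called higher in both strains (limma, adjusted p 0.017 in Roma and 0.015 in M-81E), with a difference of -0.23 ± 0.36. Water channels had a median log2 change of -0.54 in Roma and 0.50 in M-81E, peroxidases -0.08 and 0.44, and cell wall loosening genes -0.21 and 0.24; the differences of these medians were not tested.

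**Figure D3:**
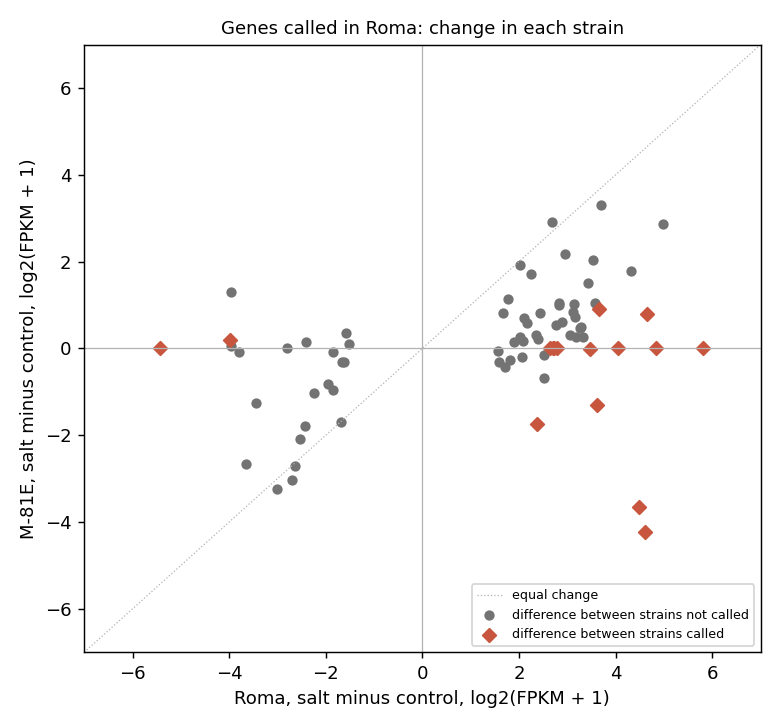
Change with salt on the log2(FPKM + 1) scale in Roma (horizontal) and M-81E (vertical) for the 77 genes called in Roma; red diamonds are the 17 genes whose difference between the strains was called, grey points the others, and the dotted line marks equal change. Several red diamonds lie at 0 in M-81E, where the table lists the gene at 0, and the oxalate decarboxylase genes lie at 4.61 and 4.48 in Roma against -4.23 and -3.65 in M-81E.

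The m6A list of salt-treated Roma roots held almost all of the control list and more. The control list had 5946 peaks on 5221 genes, and the salt list 12071 peaks on 9843 genes. A salt peak overlapped 5717 control peaks by at least 1 base on the same strand, 96.1% of the control list (95% Clopper-Pearson interval 95.6 to 96.6%). Seen from the other side, 5663 salt peaks, 46.9% of the salt list (46.0 to 47.8%), overlapped a control peak. This left 229 peaks of the control list alone and 6408 of the salt list alone. There is 1 list per treatment, so these counts have no replicate check, and the intervals cover counting error only. The sources used here give neither the read depth of each list nor whether replicates were pooled. Taking the 5946 peaks with the best p value of the authors from each list, 79.5% of control and 78.3% of salt peaks were shared.

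Peaks sat mostly in 3′ untranslated regions, by the annotation in the lists: 80.4% of the control list (79.4 to 81.4%) and 77.1% of the salt list (76.3 to 77.8%). Other exon parts held 12.8% and 14.3%, and 5′ untranslated regions 6.79% and 8.60%. Among peaks of the salt list alone 71.9% were in 3′ untranslated regions, against 82.9% of the salt peaks shared with control, and 18.3% against 9.82% were in other exon parts. The 229 peaks of the control list alone were spread further, with 53.3% in the 3′ and 17.9% in the 5′ untranslated region. Centres lay a median of 253 bases from the annotated 3′ end of the gene for shared salt peaks, 298.5 bases for peaks of the salt list alone and 528.5 bases for those of the control list alone. Within the salt list, by the fold enrichment of IP over input that the authors give, shared peaks had a median of 34.1 and a median width of 330.0 bases, and peaks of the salt list alone 13.6 and 210.0 bases.

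**Figure D4:**
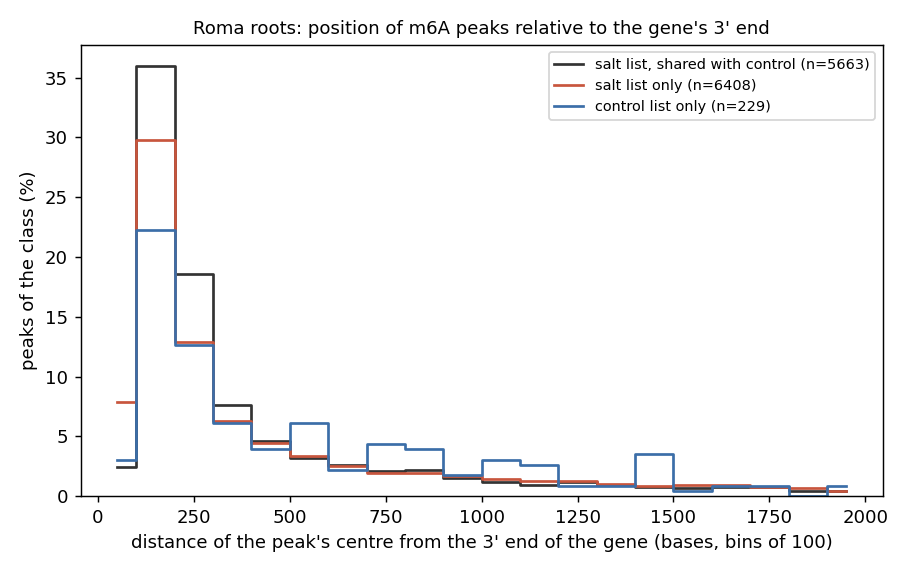
Share of peaks in bins of 100 bases by the distance of their centre from the 3′ end of the gene, up to 2000 bases, for salt peaks shared with control (black), peaks of the salt list alone (red) and peaks of the control list alone (blue). All 3 classes are highest between 100 and 200 bases, at 36.0%, 29.7% and 22.3%.

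Most peaks of the salt list alone among the Roma lists were also listed in M-81E: 4403 of 6408 (68.7%) overlapped a peak of M-81E, and 42.3% overlapped both M-81E lists. The same share was 96.0% for salt peaks shared with the Roma control list and 44.5% for the 229 peaks of the control list alone. The control list was shorter than each M-81E list, which held 10214 and 10249 peaks.

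Genes with peaks in the salt list only had similar median levels in both treatments. Of the tested genes 4939 had peaks in both Roma lists, 4341 in the salt list only, 110 in the control list only and 6890 in neither. Among those with salt peaks only, 97.3% had a control mean of at least 1 FPKM, against 94.4% of all tested genes, which had passed a filter on low values, and 4341 of 4708 such genes were tested. Their median was 7.71 FPKM in control and 7.93 FPKM with salt. Genes with peaks in both lists were more abundant, at 21.7 and 21.0 FPKM. The median log2 change was 0.01 for genes with salt peaks only, -0.06 for those in both lists, -0.24 for those in the control list only and -0.03 for those in neither. Of the genes with salt peaks only, 19 were called higher and 2 lower in the fit of 8 libraries, and of those with peaks in both lists 8 higher and 5 lower, against 0.332% higher and 0.141% lower of all tested genes.

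A peak was listed more often for abundant genes in both conditions. In the control list the share of genes with a peak went from 5.50% below 1 FPKM to 80.8% at 100 FPKM and more, and in the salt list from 15.8% to 88.9%. The lists were furthest apart at 5 to 10 FPKM, where 23.7% of genes had a control peak and 59.8% a salt peak. Among the 6154 genes with at least 10 FPKM in both Roma groups, 1519 had peaks in the salt list only and 32 in the control list only. Of all 16280 tested genes, 4341 (26.7%) and 110 (0.676%) did. Total fragments per list are not given, and their part in these shares was not tested.

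**Figure D5:**
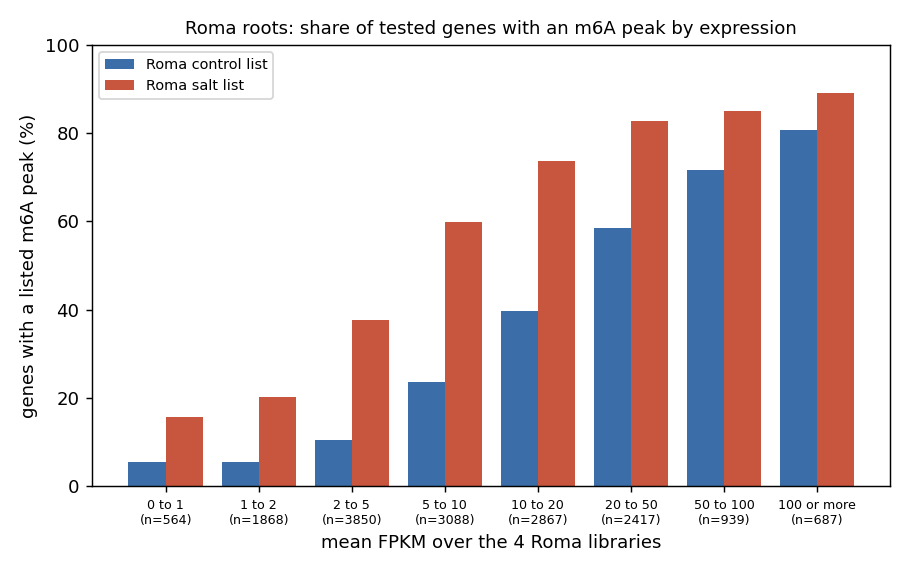
Percent of tested genes with at least 1 m6A peak in the Roma control list (blue) and the Roma salt list (red), by the mean FPKM over the 4 Roma libraries, with the number of genes in each bin. The share rises with expression in both lists, and the salt list is higher in every bin, from 15.8% against 5.50% to 88.9% against 80.8%.

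Among the genes with the largest rises, 7 of 15 had a peak in the salt list and none in the control list, against 26.7% of all tested genes, and 6 of these 7 had no peak in either M-81E list. The late embryogenesis abundant gene SORBI_3009G215700 carried a salt peak of 1185 bases annotated to the 5′ untranslated region (chromosome 9, 56036889 to 56038073; genome build: not given in the sources used here) with the authors' fold enrichment at 11.8. Unlike those 6 genes it also had a peak in both M-81E lists. The malic enzyme gene SORBI_3003G292400 carried a salt peak in its 3′ untranslated region (chromosome 3, 62492986 to 62493195; fold enrichment 9.77). The aconitase gene SORBI_3002G316900 carried one in the 3′ untranslated region (chromosome 2, 68980643 to 68980882; fold enrichment 97.8). The proton pump gene SORBI_3001G132400 had 4 salt peaks, between 1.33 and 4.48 in fold enrichment, 2 of them in 3′ untranslated regions. The control libraries of these 4 genes held 0.781 to 8.42 FPKM. The part of the expression level in the missing control peaks was not tested.

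Some genes called in neither fit also had peaks in 1 Roma list alone. The strongest salt peak absent from the control list on a gene with at least 10 FPKM in both groups was on the allantoinase gene SORBI_3006G270100, an enzyme of purine breakdown (chromosome 6, 60250299 to 60250686, 3′ untranslated region), with a fold enrichment of 592 and 18.3 and 18.4 FPKM in control against 15.4 and 14.6 FPKM with salt. SORBI_3002G400000, annotated with ubiquitination and the response to osmotic stress and water deprivation, had one in its 5′ untranslated region (chromosome 2, 75089831 to 75090039; fold enrichment 580.0), at 67.9 and 73.0 FPKM in control and 90.5 and 94.2 FPKM with salt. An actin-binding gene, SORBI_3002G327000, and a tRNA methyltransferase gene, SORBI_3001G544300, had such peaks in the 3′ untranslated region with fold enrichments of 505 and 437. All 4 peaks overlapped peaks in both M-81E lists, so within these lists it was the Roma control list that lacked them.

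Peaks of the control list alone on genes with at least 10 FPKM in both groups included the next 2, which overlapped no peak of another list. The amino acid antiporter gene SORBI_3006G084600 had one in the 3′ untranslated region (chromosome 6, 45361726 to 45361995; fold enrichment 63.0), with its gene at 59.98 and 51.6 FPKM in control and 104 and 95.5 FPKM with salt. SORBI_3004G220500, annotated with phenylalanine breakdown and defence, had an exon peak of 61 bases (chromosome 4, 57075374 to 57075434; fold enrichment 55.6). The highest fold enrichment in both Roma lists was on the same few genes, in the 5′ untranslated region: the lipid storage gene SORBI_3009G046600 with 5570.0 in the control list and 4030.0 in the salt list, and the protein kinase gene SORBI_3003G113800 with 3820.0 and 4480.0. These values rank peaks within a list and are not compared between lists.

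Gene groups differed in how many members carried a peak. Over all tested genes 31.0% had a control peak and 57.0% a salt peak. Ribosome constituents, with a median of 21.2 FPKM, had 57.6% and 79.0%, near the 58.5% and 82.7% of all tested genes between 20 and 50 FPKM. Splicing genes, at 10.5 FPKM, had 47.9% and 77.1%. Nucleosome and histone genes, at 11.7 FPKM, had 38.8% and 72.4%, near the 39.7% and 73.6% of all tested genes between 10 and 20 FPKM. Few members of some root families carried the mark in either list: 20.8% and 25% of water channels, at a median of 14.0 FPKM, 21.4% and 32.1% of peroxidases, at 11.9 FPKM, and 15.2% and 29.1% of glutathione transferases, at 9.85 FPKM. Of all tested genes between 10 and 20 FPKM, 39.7% had a control peak and 73.6% a salt peak. Transcription factors, at 5.78 FPKM, had 27.0% and 54.7%, against 23.7% and 59.8% of all tested genes between 5 and 10 FPKM.

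The annotation ties 2 tested genes to mRNA methylation, the process that writes the mark. SORBI_3004G285000, a nuclear methyltransferase by annotation, stood at 6.54 and 9.20 FPKM in the control libraries and 16.4 and 14.9 FPKM in the salt libraries, with a log2 change of 0.92 ± 0.22 that passed in neither fit (limma, adjusted p 0.18 and 0.1). Both salt libraries lay above both control libraries. SORBI_3004G033100, also annotated with splicing regulation, was at 9.85 and 9.25 FPKM with control and 8.70 and 8.45 FPKM with salt, a log2 change of -0.14 ± 0.17 (limma, adjusted p 0.83). The methyltransferase gene had a peak in the salt list and not in the control list, in the 3′ untranslated region (chromosome 4, 62738159 to 62738398; fold enrichment 15.8), and in both M-81E lists, and SORBI_3004G033100 had 1 peak in each Roma list. Other writers, erasers and readers of the mark were not sought by sequence, since no gene sequences were used here.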

How the data were processed

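Roots of 2 sorghum strains with control and salt treatment were profiled by m6A-seq, and 4 of 8 expression columns and 2 of 4 peak lists are of Roma. Tools named in the submitters' processing notes are HISAT2, StringTie, ChIPseeker, edgeR, FastQC and cutadapt, with no role or version. For the peak caller, build and annotation: not given in the sources used here. The expression table was deposited in FPKM, per the file headers, with no read counts, so depth is unknown and the number of libraries limits precision. Each peak has a p-value of the authors, a deposited score that is the log10 of that p-value or of the false discovery rate, and a fold enrichment, a ratio of IP over input, per the file headers. Lines that repeat a position were joined (3 in the control and 9 in the salt list).

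FPKM values were tested with limma 3.58.1 (R 4.3.3) as log2(FPKM + 1), a scale that understates changes of low genes, for genes with a mean of at least 1 FPKM over 8 columns. The model had 4 groups, an intensity trend and Benjamini-Hochberg adjustment at 0.05 over all tested genes, and a second fit used the 4 Roma libraries. The fit was also run on simulated data, and no result given here rests on that run. Replicate numbers did not pair the samples, since the deviations of same-numbered libraries correlated between -0.04 and 0.04 (n = 6 pairs of groups), so no block entered. P-values measure the spread between the deposited replicates.

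Peaks were shared when they had at least 1 base in common, on one chromosome and strand. Shares carry 95% Clopper-Pearson intervals, which cover counting error only. The 36 gene lists are phrases matched in the deposited annotation text. The members and lists were chosen with earlier results of these data known. Named genes were the 15 largest rises and falls called with all libraries (10 falls met the rule), the 12 largest each way of the Roma-only fit, both with an annotated product or function, at least 5 FPKM on average in Roma, no Roma library at 0 and groups that did not overlap, and up to 4 called members of each list. Also named were the 5 peaks of highest fold enrichment in each list and, on genes of at least 10 FPKM in both groups, the 8 highest of 1 list only. Tables and plots used Python 3.11.15, pandas 2.3.3, NumPy 2.4.6, SciPy 1.17.1 and Matplotlib 3.10.9. Alternatives were another pseudocount, filter and scaling, no trend, a robust fit, a replicate block, leaving out each library, and other peak overlap and thresholds.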

Additional observations from a re-analysis of the deposited data

Results flagged for a closer look

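The test of the difference between the salt responses of Roma and M-81E passed for 9 named genes (limma, 8 libraries, adjusted over all tested genes). Values are Roma minus M-81E on the log2 scale. For SORBI_3004G148100 and SORBI_3007G067608, both annotated as oxalate decarboxylases, the difference was 8.84 and 8.13, with changes of 4.61 and 4.48 in Roma and -4.23 and -3.65 in M-81E. For SORBI_3003G292400, the malic enzyme, it was 3.85, from 4.65 in Roma and 0.80 in M-81E. For SORBI_3009G171400, the oxidoreductase, it was 2.74, from 3.65 and 0.91. For SORBI_3009G232700, annotated to U2AF, it was 3.49, from 3.48 and -0.01. That gene was listed at or below 0.182 FPKM in every M-81E library, yet carried 1 peak in each M-81E list.

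The other 4 genes were listed at 0 in all 4 M-81E libraries. No M-81E response was measured for them, so the difference equals the Roma change and rests on where a 0 is listed. The difference was 5.81 for SORBI_3005G109000, the monooxygenase, 4.06 for SORBI_3008G013800, a protein kinase that binds carbohydrate by annotation, 2.64 for SORBI_3009G110500, a ubiquitin ligase, and -5.44 for SORBI_3004G305600, the splicing gene. SORBI_3008G013800 was listed at 0 in the Roma control libraries and at 17.1 and 14.4 FPKM in the Roma salt libraries, yet carried 1 peak in each Roma list and in each M-81E list. With 2 libraries per group, no library could be tested for standing apart from its group. M-81E control replicate 2 had the lowest summed FPKM of all libraries, 325987, and the most genes listed at 0, 6080. On the second principal component of all libraries it lay at 94.6 and M-81E control replicate 1 at -12.1.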

How the results depend on the processing

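The 77 calls in Roma became 217 in the Roma-only fit, 130 with no filter, 30 with a filter at 5 FPKM, 44 with a replicate block on 8 libraries, and 0 in limma with a replicate block on the Roma libraries alone, where 3322 genes had an unadjusted p under 0.05. Leaving out each library in turn gave 33 to 311 calls with all groups in the fit. It gave 0 in the Roma libraries alone (limma; unadjusted, 2901 to 3826), an alternative chosen after seeing the data. The share of higher calls was 70.1% and went to 60% with the filter at 5 FPKM and to 77.3% with the replicate block. The 29 differences between strains became 50 with no filter, 5 with the filter at 5 FPKM and 10 with a replicate block, and 16 to 1089 when each library was left out. With equal numbers of best peaks, the shared share was 79.5% of control and 78.3% of salt peaks. A pseudocount of 0.1 gave 58 calls and median centring 79. Over 2294 pairs of a named gene and an alternative, 1686 stayed on the same side of the threshold, 477 lost the call and 131 gained it. The 1686 take in genes called neither in the main fit nor in the alternative, such as 54 with the replicate block on the Roma libraries alone. Of the called changes 0 turned sign. Leaving out a library could not turn one, since the Roma groups of all called genes did not overlap. The median change turned sign with scaling for the lists of salt and osmotic stress, nucleosome and photosynthesis genes, so no direction is given for them. The cause of these moves was not tested. FPKM without counts sets no limit on low genes, and each peak list has no replicate.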

Other observations

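SORBI_3006G194600, a protein kinase by annotation, was listed at 7.75 and 6.56 FPKM in the Roma control libraries and at 0 in both salt libraries, yet carried 1 peak in the Roma salt list. SORBI_3008G096200, another kinase, was at 0.134 and 0.178 FPKM in control and 8.92 and 9.48 FPKM with salt and was called higher in both fits. Genes annotated with heat response or folding moved in both directions: besides the chaperone-type gene that fell in the Roma-only fit, SORBI_3001G418600 was at 0.264 and 0.146 FPKM in control and 4.45 and 6.84 FPKM with salt, and SORBI_3010G233200 at 1.57 and 2.38 FPKM in control and 15.1 and 13.2 FPKM with salt, both called higher in the fit of 8 libraries (limma, adjusted p 0.026 for each). SORBI_3006G157500, a ubiquitin ligase, was at 38.9 and 35.9 FPKM in control and 17.5 and 18.1 FPKM with salt, and its peaks were in the Roma control list only. Genes with 3 or more peaks numbered 78 in the control list (1.49%) and 325 in the salt list (3.30%).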
